A study of Mus musculus with 9 samples.

Results

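Heat shock proteins are chaperones, proteins that bind other proteins while they fold, unfold or are taken apart, and cochaperones set the pace and the target of that work. Their transcripts were followed in non-epithelial cells of the mammary gland, in mice under calorie restriction (CR) and in mice fed ad libitum. Members were taken by gene symbol: symbols that begin with Hsp (perlecan, Hspg2, left out), with Dnaj, or with Bag or Cct and a digit, together with Hsf1, Tcp1, Stip1, St13, Ahsa1 and Chordc1. This gave 79 of the 11063 genes in the table. Hsf2 and Dnaja1 were not analysed here. Hspb11 among them is a subunit of intraflagellar transport and not a chaperone, and it was too low to test. Female FVB/N mice entered at 6 weeks of age, and 5 of them (CR mice 1 to 5) received 65% of the food eaten by their counterparts for 8 weeks, while 4 (mice 2 to 5) stayed on ad libitum food. The food share is the one in the submitters' notes, and the study's methods give a slightly larger one. From each mouse 15000 cells of the number 4 glands, negative for CD24 and CD49f after magnetic depletion of lineage-positive cells, gave 1 library of 3′ transcript ends in which each molecule carries an identifier. The sorted population is mixed, and in such bulk samples fewer cells of a type and less RNA per cell cannot be told apart.

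Chaperones fall into classes by size and partner. Hsp70 grips short exposed stretches of a client, J proteins (the Dnaj genes) deliver clients and start its ATPase, and exchange factors such as the BAG and Hsp110 proteins make it let go, while Hsp90 takes over signalling proteins late in folding and the small heat shock proteins hold unfolding proteins without ATP. The ring chaperonins, CCT in the cytosol and Hsp60 with its lid Hsp10 in mitochondria, enclose a client. Heat, toxic proteins and other stress raise many cytosolic members through heat shock factor 1 (Hsf1), and stress in the endoplasmic reticulum (ER) raises the ER members through a separate pathway.

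Depth differed with diet. The recovered counts of molecules summed to 785301 to 1485963 per library in CR mice and to 382877 to 817030 in ad libitum-fed mice, and a count of 0 allowed up to 1.55 to 2.90 and 2.69 to 5.85 normalized counts, limits that cover counting error only. The make-up of the cells differed as well. All 17 tested T cell markers were lower in CR mice, where their summed level ran from 128.7 to 278.8 normalized counts, against 1908 to 3416 in ad libitum-fed mice. Of 6 tested macrophage markers 3 were lower in CR mice, with sums of 100.4 to 501.9 in CR mice and 372.4 to 668.7 in ad libitum-fed mice, and 8 of 23 tested fibroblast markers were higher, with sums of 16730 to 22050 in CR mice and 9618 to 18790 in ad libitum-fed mice. The 6 epithelial markers in the table summed to 25.1 to 43.9 normalized counts in CR mice and to 35.0 to 92.8 in ad libitum-fed mice. Among them Krt18 reached at most 7.74 in CR mice and 5.17 in ad libitum-fed mice, and Itga6, the CD49f of the sort, ran from 1.93 to 8.08 in CR mice and from 6.9 to 56.7 in ad libitum-fed mice. Epcam, Krt5, Krt14 and Krt8 were not analysed here. The part of these shifts in the chaperone results was not tested.

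Most chaperone genes did not pass the test between the diets, and 8 did. Of the 79 members, 62 reached 10 normalized counts in at least 4 libraries and were tested with limma on log2(normalized count + 1) over 6815 genes, and 17 were too low. At an adjusted p of at most 0.05, 6 of the 62 were higher in CR mice (Hspb8, Hspb1, Hspd1, Hspa8, Bag3 and Hspa9), against 7.98% of all tested genes. Both genes that were lower, Dnajc7 and Dnajc2, are J proteins of class C, against 9.14% of all tested genes. The other 54 did not pass. The counts are therefore close to those of the table as a whole in the higher direction and below them in the lower one. At an unadjusted p below 0.05 there were 13 higher and 3 lower members. The groups did not overlap at all for 3 members higher in CR mice (Hspb8, Bag3 and Hspa9; 7.29% of all tested genes) and for 2 lower ones (Dnajc2 and Dnajc7; 9.63% of all tested genes). The median log2 fold change over the 62 members was 0.24, with 45 above 0 and 17 below, and the median over all 6815 genes was 0.07. When libraries were scaled to the fibroblast markers instead, the median of all genes moved by -0.46 and that of the members became -0.23. A change of scaling moves all genes by nearly the same amount. It must therefore leave the distance of the members from all genes nearly as it was (0.16, against 0.17 with the deposited scaling). That distance is no test of the part of cell make-up. Under the fibroblast scaling Hspb8 was the single member that stayed higher (0.998% of all tested genes were).

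**Figure D1:**
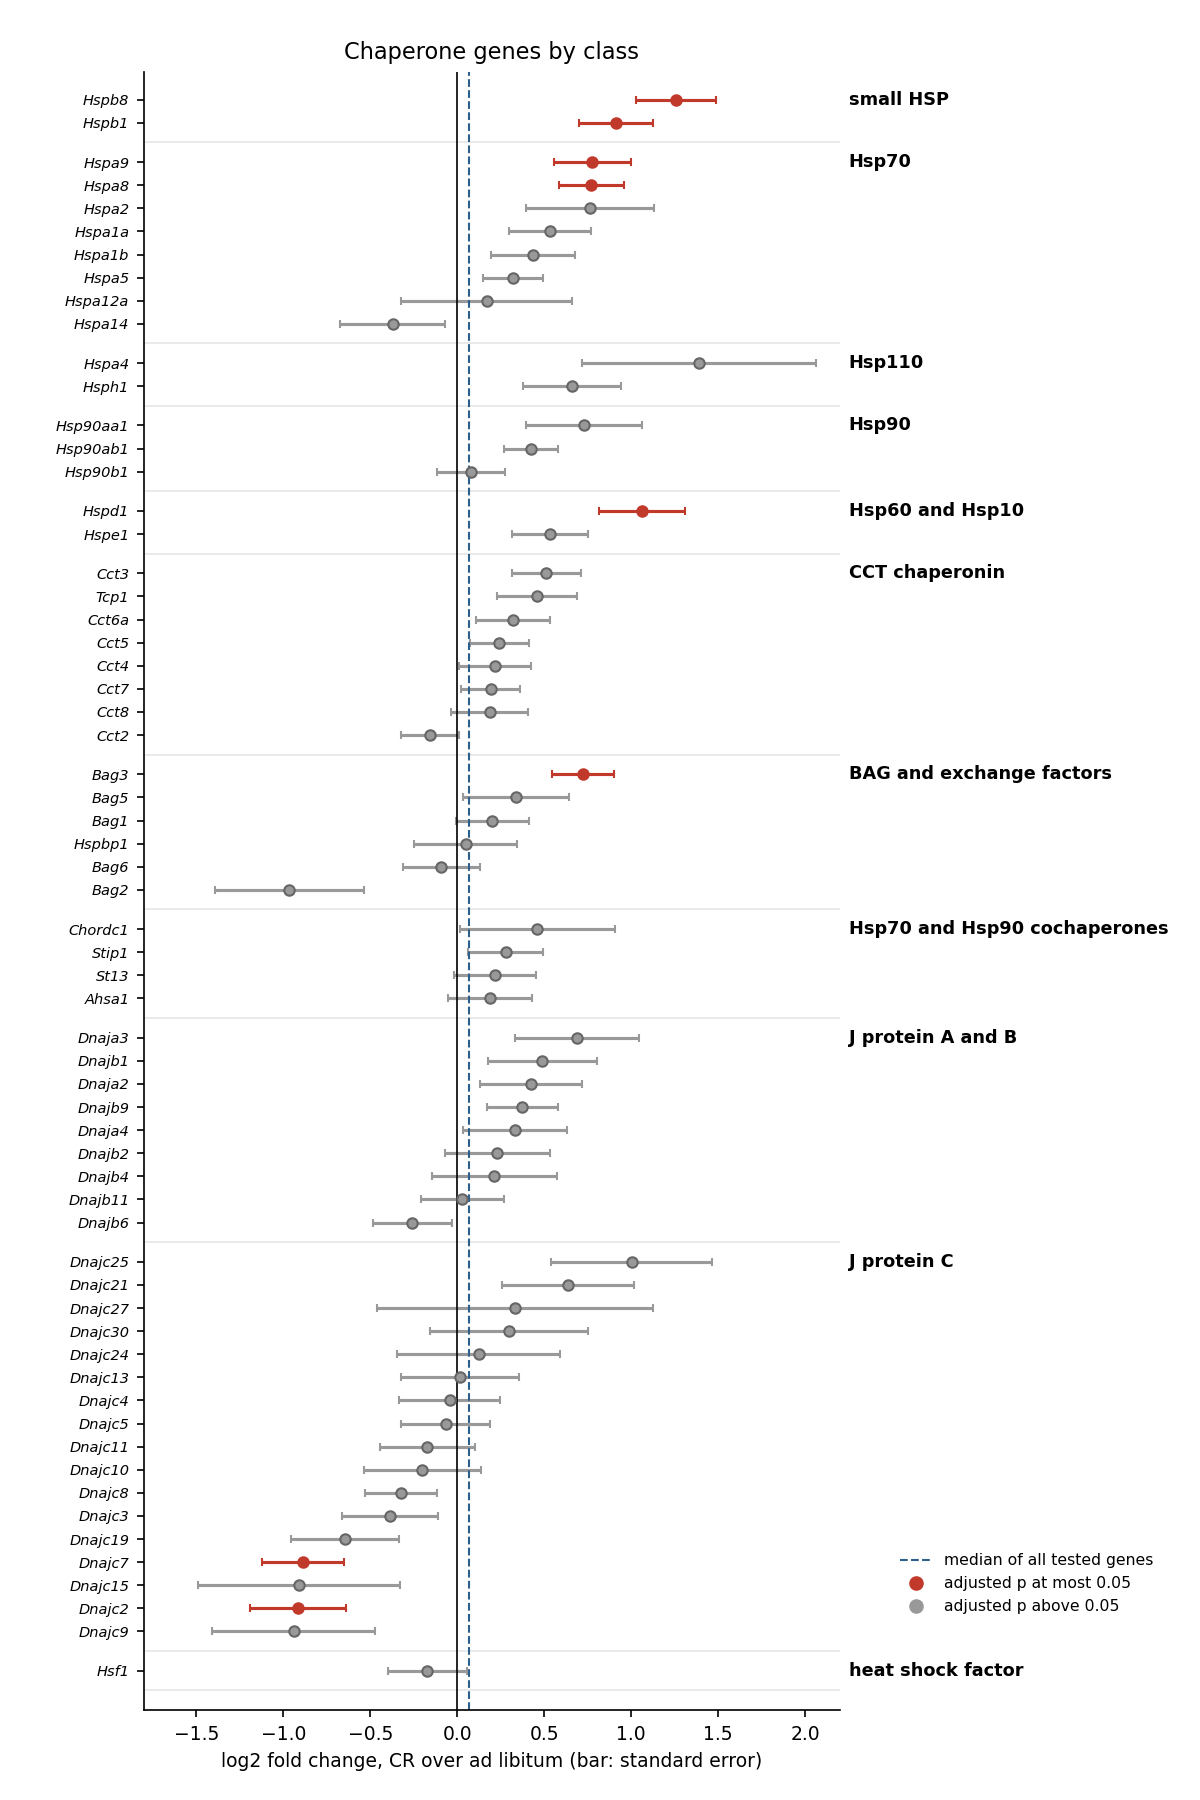
Log2 fold change of each of the 62 tested chaperone genes, CR over ad libitum (x axis, log2 scale, bar: standard error), with genes grouped by class down the page. Red points passed an adjusted p of 0.05 (6 higher in CR mice, 2 lower), grey points did not, and the dashed line is the median of all 6815 tested genes at 0.07. Both tested small heat shock proteins lie at the right and both genes that passed on the left are class C J proteins.

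Both tested small heat shock proteins and their partner Bag3 were higher in CR mice. Hspb8 (chr5:116408491-116422864 in mouse build GRCm38.p6, as all positions here) works with Bag3 to pass damaged proteins, above all those of stretched actin structures, to autophagy. Hspb8 stood at 675, 579, 734, 694 and 584 normalized counts in CR mice 1 to 5, against 339, 203, 177 and 446 in ad libitum-fed mice 2 to 5. Every CR mouse lay above every ad libitum-fed mouse (log2 fold change 1.26 ± 0.23 SE, adjusted p = 0.000776), and the call held when any single library was left out (adjusted p 7.21e-05 to 0.00509) and under scaling to the fibroblast markers (0.78, adjusted p = 0.0291).

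Bag3 (chr7:128523583-128546981), the BAG protein that joins Hsp70 to the small heat shock proteins, had 559, 949.6, 719, 678 and 588 normalized counts in CR mice, against 463, 360.5, 381 and 467 in ad libitum-fed mice. Again the diets did not overlap, with the smallest gap between CR mouse 1 and ad libitum-fed mouse 5 (log2 fold change 0.72 ± 0.18 SE, adjusted p = 0.00808). Hspb1 (chr5:135887919-135889563), known as Hsp25 in mice, binds unfolding proteins and caps actin filaments, and it reached 957, 1995, 1692, 1561 and 1324 normalized counts in CR mice, against 773, 772, 564 and 1079 in ad libitum-fed mice. Here CR mouse 1 was below ad libitum-fed mouse 5 and the other 4 CR mice were above all ad libitum-fed mice (log2 fold change 0.91 ± 0.21 SE, adjusted p = 0.00562). With the fibroblast scaling Bag3 (0.24, adjusted p = 0.538) and Hspb1 (0.43, adjusted p = 0.223) kept their sign and no longer passed. The region before the Hspb1 start holds a pair of heat shock elements, the sites that trimers of Hsf1 bind. They were searched as GAANNTTC or TTCNNGAA on both strands, and are shown because Hspb1 is the called small heat shock protein with matches before its start (capitals: the matches, chr5:135887801-135887830, plus strand, RefSeq, build GRCm38.p6).
Hspb1: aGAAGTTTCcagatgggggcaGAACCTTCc

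**Figure D2:**
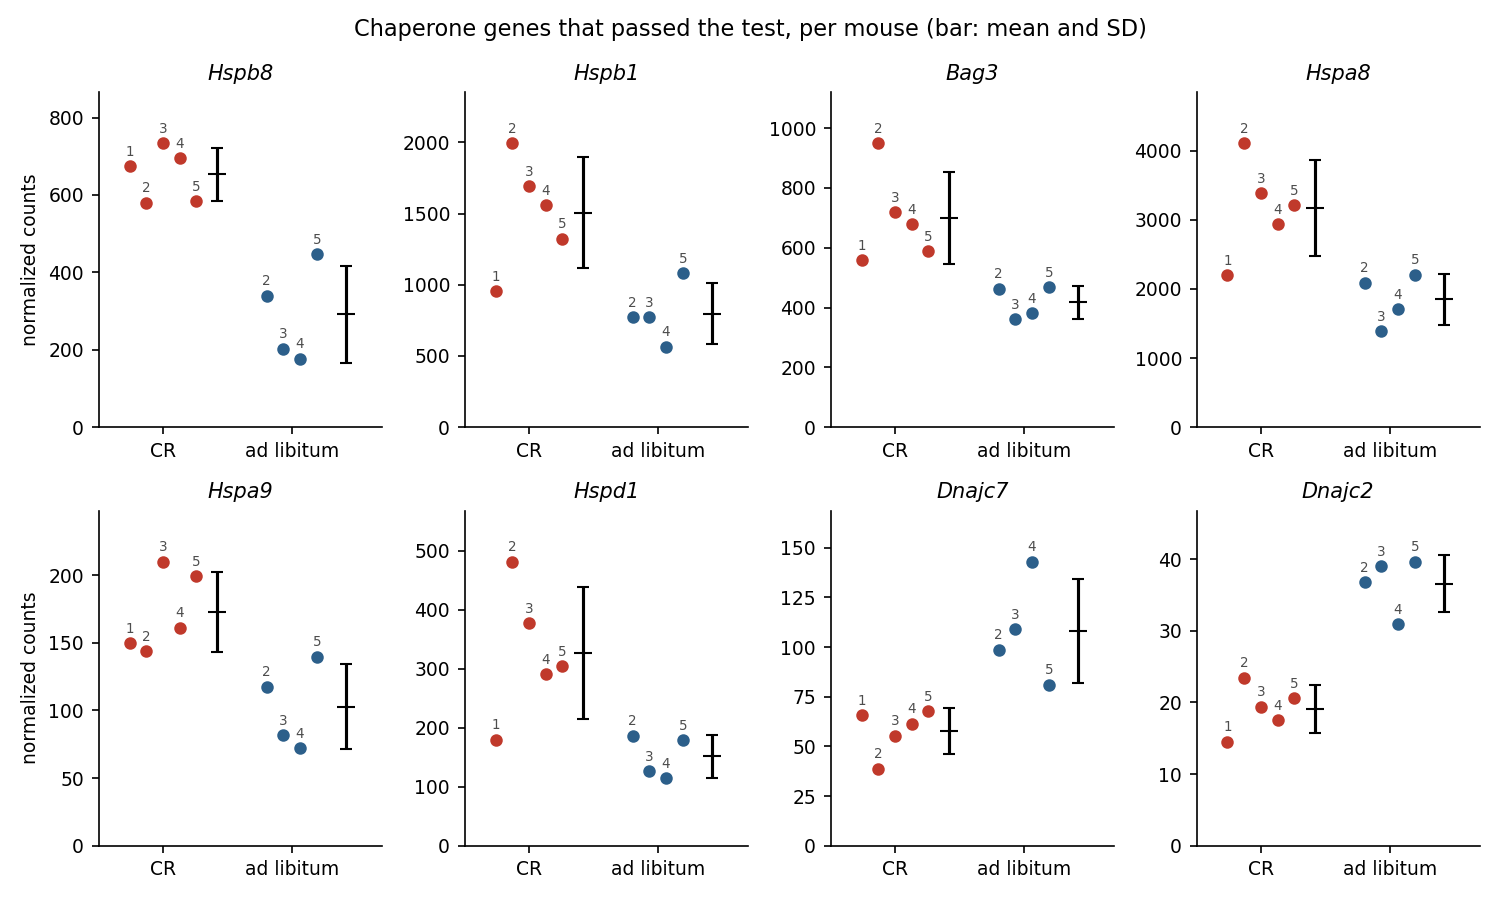
Normalized counts (y axis, linear from 0) of the 8 chaperone genes that passed the test, 1 point per mouse with its number, CR mice left in red and ad libitum-fed mice right in blue, with the mean and SD in black (n = 5 and 4). The diets do not overlap for Hspb8, Bag3, Hspa9, Dnajc7 and Dnajc2, while CR mouse 1 sits among the ad libitum-fed mice for Hspb1, Hspa8 and Hspd1.

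Among the cytosolic Hsp70 genes the constitutive gene passed as higher and the inducible pair did not pass, but a direct comparison found no difference that passed. The log2 ratio of Hspa1a to Hspa8 within a library differed by -0.24, CR minus ad libitum (exact permutation p = 0.31, adjusted p = 0.398 over the 9 pairs below). Hspa8 (chr9:40801276-40805202), or Hsc70, the Hsp70 present in unstressed cells, which also strips clathrin from vesicles, was counted at 2199.6, 4110.4, 3384, 2936 and 3209 normalized counts in CR mice 1 to 5, against 2089.5, 1391, 1705 and 2205 in ad libitum-fed mice 2 to 5. CR mouse 1 was just below ad libitum-fed mouse 5, and the other 4 CR mice lay above all ad libitum-fed mice (log2 fold change 0.77 ± 0.19 SE, adjusted p = 0.00713). The fibroblast scaling left 0.29 (adjusted p = 0.458).

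Hspa1a (chr17:34969359-34972156) and Hspa1b (chr17:34956429-34959238) are neighbouring, near-identical genes without introns that encode the Hsp70 made under stress. Their 3′ tags could be split between the copies by the counting, so each value is uncertain. Hspa1a had 1920.3, 5662, 2496, 3891 and 3940.0 normalized counts in CR mice, against 2576, 1964, 2407 and 2332 in ad libitum-fed mice. Mice 2, 4 and 5 under CR were above all ad libitum-fed mice, mouse 3 was within their range and mouse 1 was below it. The difference did not pass (log2 fold change 0.53 ± 0.24 SE, adjusted p = 0.134; with the fibroblast scaling 0.05, adjusted p = 0.917). Hspa1b had 2312, 7463, 3422, 4914 and 4625 normalized counts in CR mice, against 3645, 2601, 3250.0 and 3074 in ad libitum-fed mice (log2 fold change 0.44 ± 0.24 SE, adjusted p = 0.241; with the fibroblast scaling -0.04), and its mice divided the same way. Without CR mouse 1 both passed, at 0.73 (adjusted p = 0.0231) for Hspa1a and 0.65 (adjusted p = 0.0393) for Hspa1b. Leaving out CR mouse 2, the highest for both, gave 0.34 (limma adjusted p = 0.312) for Hspa1a and 0.23 (adjusted p = 0.516) for Hspa1b. The windows before their starts that hold a heat shock element are printed to show that the copies have the same letters there, both on the minus strand, at chr17:34972243-34972270 and chr17:34959325-34959352 (capitals: the element).
Hspa1a: gaaactgctgGAAGATTCctggccccaa
Hspa1b: gaaactgctgGAAGATTCctggccccaa

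The germ cell Hsp70 gene Hspa2 had a log2 fold change of 0.76 ± 0.37 (SE; adjusted p = 0.172), and Hspa14, the Hsp70 of the ribosome-associated complex, -0.37 ± 0.30 (adjusted p = 0.441). Over the Hsp70 class 2 of 8 tested genes passed, both higher, with a median of 0.49 that came to 0.01 with the fibroblast scaling. Of all tested genes 7.98% were higher, and their median was 0.07, or -0.39 with the fibroblast scaling.

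In mitochondria the Hsp70 gene Hspa9 and the chaperonin ring gene Hspd1 were higher in CR mice, and the other members did not pass. Hspa9, or mortalin, the mitochondrial Hsp70 that pulls proteins through the inner membrane, had 149.8, 144, 209.9, 161 and 199 normalized counts in CR mice, against 118, 81.8, 72.2 and 139.6 in ad libitum-fed mice. The groups did not overlap, though the lowest CR mouse and the highest ad libitum-fed mouse were close (log2 fold change 0.78 ± 0.22 SE, adjusted p = 0.0213). Of the 6 higher genes it alone lost its call when a single library was left out, namely CR mouse 3, CR mouse 5, ad libitum-fed mouse 3 or ad libitum-fed mouse 4 (adjusted p over single omissions 0.00695 to 0.071). The call was also lost with the fibroblast scaling (0.30, adjusted p = 0.478).

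Hspd1 (chr1:55077833-55088243), which encodes the Hsp60 ring, was at 179.8, 482, 377, 291 and 305 normalized counts in CR mice, against 187, 127, 115 and 179 in ad libitum-fed mice. CR mouse 1 was the exception, below ad libitum-fed mouse 2, and the other 4 CR mice lay above every ad libitum-fed mouse (log2 fold change 1.06 ± 0.25 SE, adjusted p = 0.00586; with the fibroblast scaling 0.58, adjusted p = 0.166). Hspe1 (chr1:55088148-55091317), the gene of its lid Hsp10, had 289, 685, 579, 572 and 659.7 normalized counts in CR mice, against 426, 318, 359.5 and 378 in ad libitum-fed mice. It showed the same split, with CR mouse 1 lowest of all 9, and did not pass (log2 fold change 0.53 ± 0.22 SE, adjusted p = 0.106; with the fibroblast scaling 0.055, adjusted p = 0.913) unless that mouse was left out (0.75, adjusted p = 0.00564). Over all single omissions the limma adjusted p of Hspe1 ran from 0.00564 to 0.223. The genes lie head to head and are read in opposite directions, and both of their RefSeq promoters contain the same run of 4 heat shock units in alternate direction (chr1:55088059-55088076). It is shown as it lies before Hspe1, on the plus strand, because Hspd1 and Hspe1 share it (capitals: the overlapping elements, chr1:55088053-55088082).
Hspe1: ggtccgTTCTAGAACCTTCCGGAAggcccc

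Of the other tested mitochondrial members, Dnaja3 (Tid1, the J protein of mortalin) had 0.69 ± 0.36 (SE; adjusted p = 0.201), and Dnajc19 and Dnajc15, J proteins of the import motor, had -0.64 ± 0.31 (adjusted p = 0.169) and -0.91 ± 0.58 (adjusted p = 0.317). The compartment as a whole had 2 higher and 0 lower of 9 tested genes, against 7.98% higher and 9.14% lower of all tested genes. Its median was 0.30, against 0.07 over all tested genes. With the fibroblast scaling these medians became -0.14 and -0.39. Among 10 tested genes of a list of further mitochondrial chaperones and proteases (16 listed), none passed by limma, edgeR, DESeq2 or limma-voom, 2 had an unadjusted p below 0.05 and the median was -0.10. The list's smallest p-values were those of Htra2, a protease of the intermembrane space (log2 fold change 0.64 ± 0.23 SE, adjusted p = 0.0686), and Spg7, a subunit of an inner membrane protease (-0.64 ± 0.25 SE, adjusted p = 0.0915).

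The remaining targets of the heat shock response were spread widely among CR mice. Hsph1 (chr5:149616843-149636498), or Hsp105, an exchange factor of Hsp70, had 218, 755, 543, 405 and 468 normalized counts in CR mice, against 263, 212, 430.4 and 255 in ad libitum-fed mice. CR mouse 1 was below 3 of the 4 ad libitum-fed mice, CR mouse 4 was below ad libitum-fed mouse 4, and CR mice 2, 3 and 5 were above all of them (log2 fold change 0.66 ± 0.28 SE, adjusted p = 0.118; 0.91 without CR mouse 1, adjusted p = 0.015; 0.18 with the fibroblast scaling, adjusted p = 0.753). Without CR mouse 2 the log2 fold change of Hsph1 was 0.47 (limma adjusted p = 0.272). Dnajb1 (chr8:83608175-83612653), the main J protein of the stress response, stood at 199, 885, 460.4, 327 and 241 normalized counts in CR mice, against 294, 201, 277 and 276 in ad libitum-fed mice. CR mice 2 and 3, and by less mouse 4, exceeded the ad libitum-fed mice, and CR mice 1 and 5 did not (log2 fold change 0.49 ± 0.31 SE, adjusted p = 0.319). Leaving out CR mouse 2 brought Dnajb1 to 0.17 (limma adjusted p = 0.695).

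The cytosolic Hsp90 genes followed a like pattern. Hsp90ab1 (chr17:45567778-45573261), the constitutive form, had 1202, 1817, 1659.9, 1651 and 1922 normalized counts in CR mice, against 1193, 1200.3, 1246 and 1224 in ad libitum-fed mice. The ad libitum-fed mice were nearly level and only CR mouse 1 lay among them (log2 fold change 0.42 ± 0.16 SE, adjusted p = 0.0694; 0.53 without CR mouse 1, adjusted p = 0.0201; with the fibroblast scaling -0.06). Over all single omissions the limma adjusted p of Hsp90ab1 ran from 0.0201 to 0.148. Hsp90aa1 (chr12:110691036-110696395), the inducible form, was at 42.5, 119.6, 84.1, 125 and 64.3 normalized counts in CR mice, against 46.7, 29.2, 46.4 and 86.2 in ad libitum-fed mice. CR mice 1, 3 and 5 were below ad libitum-fed mouse 5, and CR mouse 1 was also below ad libitum-fed mice 2 and 4 (log2 fold change 0.73 ± 0.33 SE, adjusted p = 0.144; adjusted p = 0.0408 without ad libitum-fed mouse 5; 0.26 with the fibroblast scaling, adjusted p = 0.663). Over all single omissions the limma adjusted p of Hsp90aa1 ran from 0.0408 to 0.359. The message of Hsf1 itself, with 111, 72.7, 94.7, 99.6 and 61.8 normalized counts in CR mice, against 96.9, 74.0, 112 and 110.3 in ad libitum-fed mice, was mixed between the diets (log2 fold change -0.17 ± 0.23 SE, adjusted p = 0.654).

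**Figure D3:**
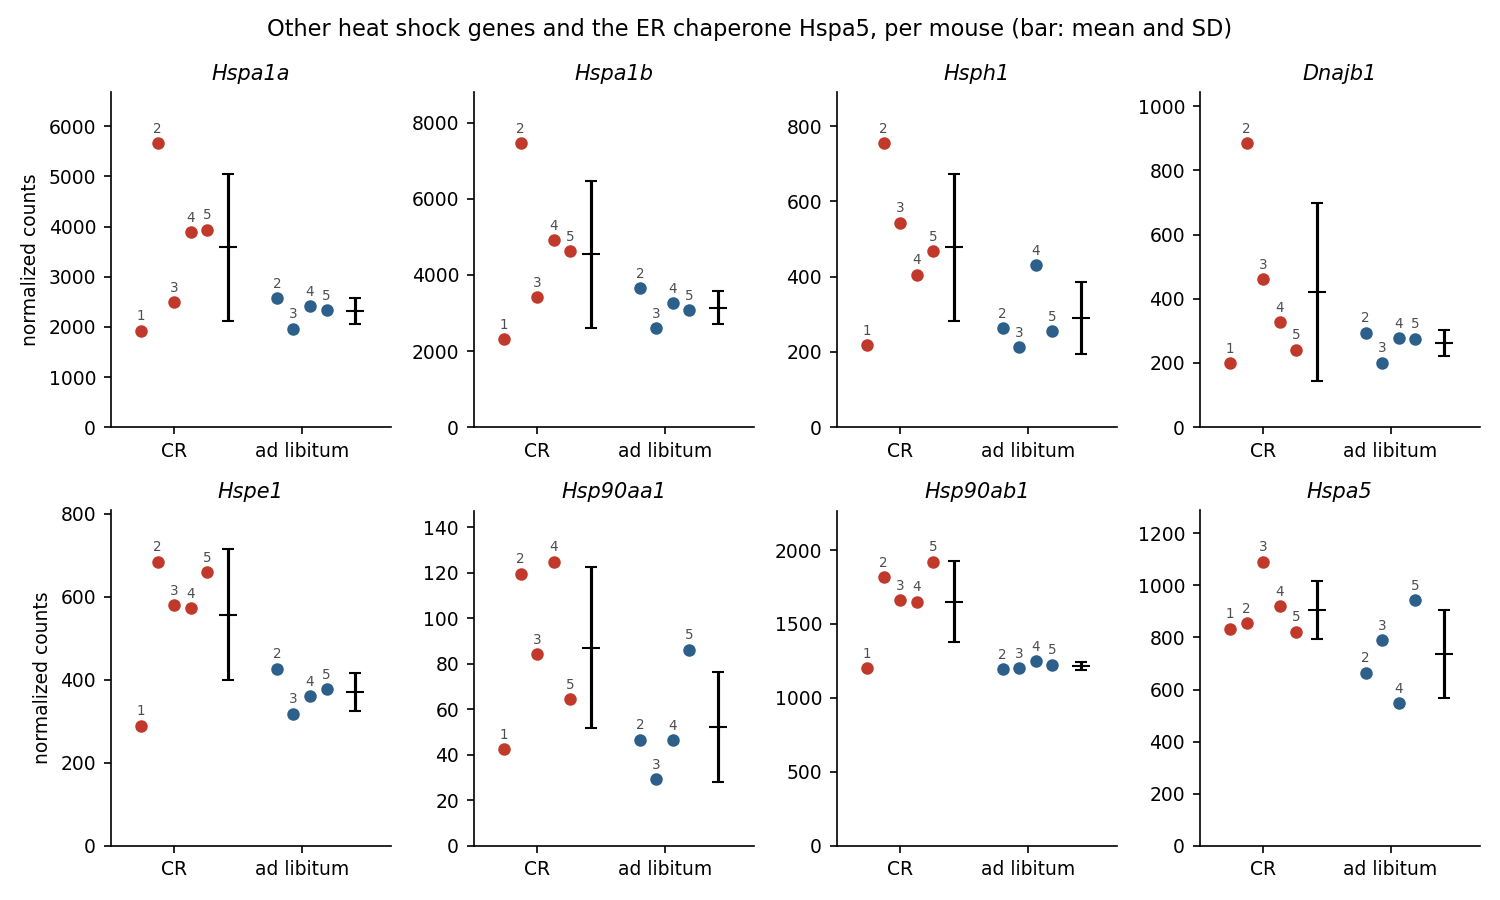
Normalized counts (y axis, linear from 0) of 7 further heat shock genes and of the ER chaperone gene Hspa5, 1 point per mouse with its number, CR mice left in red and ad libitum-fed mice right in blue, with the mean and SD in black (n = 5 and 4). CR mouse 1 is the lowest CR mouse for the first 7 genes, and CR mouse 2 is the highest for Hspa1a, Hspa1b, Hsph1, Dnajb1 and Hspe1. None of the 8 passed the test.

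Summed over a list of 20 known Hsf1 targets, 15 of them members, the level was 11400, 26410, 16890, 19000 and 18940 normalized counts in CR mice 1 to 5, against 13070, 10670, 11740 and 12940 in ad libitum-fed mice 2 to 5. CR mouse 1 lay within the range of the ad libitum-fed mice and the other 4 CR mice lay above it. Such a sum is weighted to its most abundant genes, and Hspa1a, Hspa1b and Hspa8 had the highest counts of all members. By limma 4 of 19 tested targets were higher and 0 lower, with a median of 0.49 (7.98% of all tested genes were higher). Without CR mouse 1 there were 9 higher and 0 lower, with a median of 0.71 (6.07% of all tested genes were higher and 8.13% lower), and with the fibroblast scaling 0 higher and a median of 0.01 (0.998% of all tested genes were higher). The median of all tested genes was 0.07 with and without CR mouse 1, and -0.39 with the fibroblast scaling. Across the 27 members with a mean of at least 100 normalized counts, CR mouse 1 was the lowest CR mouse for 16, and CR mouse 3 was the highest for 12 and CR mouse 2 for 9, and over all tested genes CR mouse 1 was the lowest in 21.3%. These counts were made after these values had been seen. The depth of CR library 1 (785301 counts) was the smallest of the CR libraries.

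A list of 20 immediate early genes, transcription factors and regulators that cells switch on within minutes of a stimulus, cell dissociation included, moved in the same direction. Their sum was 20470, 22670, 16450, 15930 and 17020 normalized counts in CR mice 1 to 5, against 11450, 10710, 10100 and 10360 in ad libitum-fed mice 2 to 5, without overlap, and 11 of 20 were higher in CR mice and 0 lower (median 0.74), against 4 higher and 1 lower with the fibroblast scaling (median 0.26). Of all tested genes 7.98% were higher and 9.14% lower (median 0.07). With the fibroblast scaling 0.998% were higher and 15.4% lower (median -0.39). CR mouse 2 had the highest sum of both this list and the Hsf1 targets. CR mouse 1 had the second highest sum of immediate early genes and the lowest sum of Hsf1 targets among CR mice. The part of immediate early genes in the chaperone values was not tested.

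In the ER no member passed. Hspa5 (chr2:34772090-34776529), or BiP, the ER Hsp70, had 834, 855, 1091, 921 and 823 normalized counts in CR mice 1 to 5, against 664, 789, 546 and 943 in ad libitum-fed mice 2 to 5. Ad libitum-fed mouse 5 lay above 4 of the CR mice (log2 fold change 0.32 ± 0.17 SE, adjusted p = 0.223; with the fibroblast scaling -0.16). Hsp90b1 (chr10:86690841-86705444), or GRP94, the ER Hsp90, had 299, 256, 405, 252 and 343 normalized counts in CR mice, against 298, 341, 209 and 329 in ad libitum-fed mice. Its diets overlapped (log2 fold change 0.08 ± 0.20 SE, adjusted p = 0.823), and its sign turned with the fibroblast scaling (-0.40) and with scaling to total counts (-0.01).

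These 2 genes carry the element through which ER stress acts, searched as CCAAT, 9 bases and CCACG on both strands, where Hspb1, Hspa1a, Hspa1b, Hspd1 and Hspe1 carry heat shock elements. Hspa5 has 1 match before its start (chr2:34772020-34772048, plus strand) and Hsp90b1 has 2, the second of them in the opposite direction (chr10:86705633-86705661 and chr10:86705528-86705556, minus strand). The capitals mark the whole element.
Hspa5: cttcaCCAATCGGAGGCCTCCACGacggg
Hsp90b1, first: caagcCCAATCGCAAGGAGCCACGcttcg
Hsp90b1, second: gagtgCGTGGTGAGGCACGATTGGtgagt

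The J proteins that serve BiP did not pass either. Dnajb9 (ERdj4) had a log2 fold change of 0.37 ± 0.20 (SE; adjusted p = 0.23), Dnajb11 (ERdj3) 0.03 ± 0.24 (adjusted p = 0.953) and Dnajc3 (p58IPK) -0.39 ± 0.28 (adjusted p = 0.375). Over the compartment 0 of 7 tested genes passed by limma, edgeR, DESeq2 or limma-voom, 1 (Dnajc25) had an unadjusted p below 0.05, and the median was 0.08, near that of all genes. Limma called 7.98% of all tested genes higher and 9.14% lower, and 0 calls among so few genes does not set the ER apart. In a list of 23 further ER chaperones and folding enzymes, 1 of 20 tested genes passed, P4hb, the disulfide isomerase that is also a subunit of collagen prolyl hydroxylase. P4hb was higher in CR mice at 541.6 to 741.2 normalized counts, against 375.0 to 507.1 in ad libitum-fed mice (log2 fold change 0.54 ± 0.16 SE, adjusted p = 0.0268), and was at 0.07 (adjusted p = 0.874) with the fibroblast scaling. Fkbp10, a collagen-folding isomerase, was next at 0.74 ± 0.26 (SE; adjusted p = 0.0627), and the median of the list was 0.02.

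The CCT chaperonin, the ring that folds actin and tubulin, showed small differences, and none of its 8 tested genes passed by limma, edgeR, DESeq2 or limma-voom (1 had an unadjusted p below 0.05, Cct3). Tcp1 (chr17:12916329-12925067), its alpha subunit, had 110.2, 108, 173, 166 and 96.1 normalized counts in CR mice, against 92.5, 125, 78.6 and 79.3 in ad libitum-fed mice. CR mice 3 and 4 stood above all ad libitum-fed mice and the other CR mice did not (log2 fold change 0.46 ± 0.23 SE, adjusted p = 0.189; with the fibroblast scaling -0.02). Of the 8 tested subunits 7 had a log2 fold change above 0, from 0.19 for Cct8 to 0.51 for Cct3 (adjusted p = 0.087 for Cct3), and Cct2 was at -0.16. The median was 0.23, and -0.25 with the fibroblast scaling. All tested genes had a median of 0.07, and -0.39 with that scaling. By limma 7.98% of them were higher and 9.14% lower. As the subunits are parts of a single complex, their signs are not separate observations of the diet.

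None of the 4 cochaperones that link or time Hsp70 and Hsp90 passed by limma, edgeR, DESeq2 or limma-voom, and 0 had an unadjusted p below 0.05. The limma shares over all tested genes were 7.98% higher and 9.14% lower. Stip1 (chr19:7020696-7040026), or Hop, which hands clients from Hsp70 to Hsp90, had 190.4, 219.8, 285, 194 and 213 normalized counts in CR mice, against 134, 239.7, 137 and 236 in ad libitum-fed mice, values that interleave (log2 fold change 0.28 ± 0.22 SE, adjusted p = 0.417). St13 (chr15:81365044-81399694), or Hip, which slows exchange on Hsp70, had 62.8, 80.8, 95.3, 128 and 109 normalized counts in CR mice, against 61.9, 89.6, 94.1 and 75.8 in ad libitum-fed mice (log2 fold change 0.22 ± 0.23 SE, adjusted p = 0.577). Only CR mice 4 and 5, and by a small margin mouse 3, were above the ad libitum-fed mice. Ahsa1 (chr12:87266415-87273998), the activator of the Hsp90 ATPase, stood at 65.7, 77.6, 115, 69.7 and 80.6 normalized counts in CR mice, against 51.2, 76.0, 61.9 and 100 in ad libitum-fed mice (log2 fold change 0.19 ± 0.24 SE, adjusted p = 0.643), and Chordc1 (chr9:18292267-18314000), an Hsp90 cochaperone, at 11.6, 10.5, 19.4, 10.3 and 18.0 normalized counts in CR mice, against 6.28, 15.6, 15.5 and 5.17 in ad libitum-fed mice (log2 fold change 0.46 ± 0.45 SE, adjusted p = 0.528). For both, the ranges of the diets overlapped through most mice, and Chordc1 rested on only 3 to 33 recovered counts per library. The signs of Stip1 (-0.20), St13 (-0.26) and Ahsa1 (-0.28) turned with the fibroblast scaling.

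Beside Bag3, the 5 other exchange factors did not pass. Bag2, which blocks the ubiquitin ligase CHIP, had the lowest log2 fold change of all members (-0.97 ± 0.43 SE, adjusted p = 0.133), and passed as lower in CR mice with the fibroblast scaling (adjusted p = 0.047). The highest, 1.39 ± 0.67 (SE), was that of the Hsp110 gene Hspa4, which had 0 to 27 recovered counts per library and did not pass (adjusted p = 0.172). In a list of 24 further cytosolic chaperones (prefoldin, p23, Cdc37 and others) 0 of 21 tested genes passed by limma, edgeR, DESeq2 or limma-voom, and 2 had an unadjusted p below 0.05, with a median of 0.01. Tomm34, a cochaperone of import into mitochondria (log2 fold change -0.71 ± 0.25 SE, adjusted p = 0.0641), and Unc45a, a myosin chaperone (-0.65 ± 0.29 SE, adjusted p = 0.129), had its smallest p-values. Among all tested genes, limma called 7.98% higher and 9.14% lower.

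The J proteins fall into classes A, B and C by the parts they share beside the J domain. Of 9 tested class A and B members, the ones with general folding work, 8 had a log2 fold change above 0 (median 0.33, and -0.13 with the fibroblast scaling) and none passed by limma, edgeR, DESeq2 or limma-voom or had an unadjusted p below 0.05. All tested genes were 7.98% higher and 9.14% lower by limma, with a median of 0.07 (-0.39 with the fibroblast scaling). Of 17 tested class C members, which share little beyond the J domain, 11 were below 0 (median -0.17, and -0.64 with the fibroblast scaling) and 2 passed, both lower, a share near the 9.14% of all tested genes. Dnajc7 (chr11:100582818-100620292), or TPR2, which binds Hsp70 and Hsp90 at once and returns clients to Hsp70, had 65.7, 38.8, 55.3, 61.4 and 67.8 normalized counts in CR mice 1 to 5, against 98.7, 109, 143 and 81.0 in ad libitum-fed mice 2 to 5. Every CR mouse was below every ad libitum-fed mouse (log2 fold change -0.89 ± 0.24 SE, adjusted p = 0.0136), and the call was lost without ad libitum-fed mouse 4 (-0.74, adjusted p = 0.0536).

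Dnajc2 (chr5:21757266-21785264), the J protein at the exit of the ribosome, had 14.5, 23.4, 19.4, 17.6 and 20.6 normalized counts in CR mice, against 36.8, 39.0, 30.9 and 39.6 in ad libitum-fed mice. All CR mice were again below all ad libitum-fed mice (log2 fold change -0.91 ± 0.28 SE, adjusted p = 0.0278). It rested on 15 to 41 recovered counts per library, and its adjusted p ran over single omissions from 0.0312 to 0.0642, and missed the threshold without CR mouse 1, 3 or 4 or ad libitum-fed mouse 2, 3 or 5. Hspa14, its Hsp70 partner on the ribosome, did not pass (above). Dnajc7 and Dnajc2 kept their calls with the fibroblast scaling, under which 15.4% of all tested genes were lower (-1.36, adjusted p = 0.00317, and -1.37, adjusted p = 0.00784). They moved in the direction of the T cell markers, and the part of T cells in them was not tested. Dnajc9, a J protein that binds histones, had the lowest value of the class (-0.94 ± 0.47 SE, adjusted p = 0.187), and Dnajc25 the highest (1.002 ± 0.46 SE, adjusted p = 0.15).

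Ratios of a pair of genes within a library depend little on how libraries are scaled. What dependence is left comes from the 1 added to each normalized count before the log. For 9 pairs the diets were compared with an exact permutation test (two-sided). That test runs through every assignment of the 9 mice to the diets and cannot give a p below 0.00794. A single pair at that p would therefore still miss the threshold after adjustment over the 9. None passed after adjustment over the 9, and 2 had an unadjusted p below 0.05. The pair with the smallest p was Dnajc7 over Stip1, partners in handing clients between Hsp70 and Hsp90, with log2 ratios of -1.52, -2.47, -2.34, -1.64 and -1.64 in CR mice 1 to 5, against -0.43, -1.13, 0.07 and -1.53 in ad libitum-fed mice 2 to 5. The mean difference was -1.17 (exact permutation p = 0.0159, adjusted p = 0.143), and the ranges met at CR mouse 1 and ad libitum-fed mouse 5. Hspd1 over Hspe1, the ring over its lid, was at -0.68, -0.51, -0.62, -0.97 and -1.11 in CR mice, against -1.19, -1.32, -1.64 and -1.07 in ad libitum-fed mice. That difference was 0.53 (exact permutation p = 0.0317, adjusted p = 0.143), with an overlap of a single mouse on each side. Hspb8 over Bag3 differed by 0.54 (exact permutation p = 0.0873, adjusted p = 0.232), and Hspa8 over Hspa5, cytosolic over ER Hsp70, by 0.45 (exact permutation p = 0.103, adjusted p = 0.232). The mitochondrial over the cytosolic constitutive Hsp70, Hspa9 over Hspa8, had a mean log2 ratio of -4.18 ± 0.38 in CR mice (SD, n = 5) and -4.18 ± 0.25 in ad libitum-fed mice (SD, n = 4; exact permutation p = 1).

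**Figure D4:**
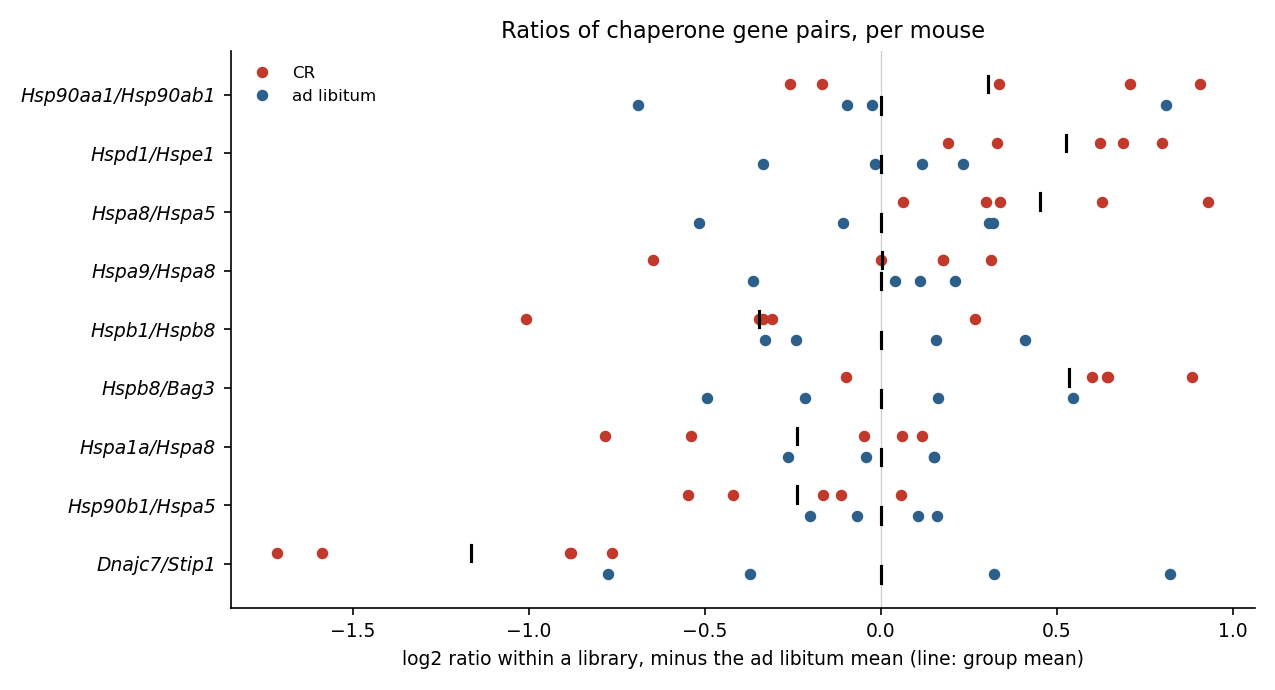
Log2 ratio of 9 chaperone gene pairs within each library, minus the mean of the ad libitum-fed mice (x axis, log2 scale), with CR mice in the upper row of each pair in red and ad libitum-fed mice in the lower row in blue, and vertical lines at the group means. The means of the diets lie farthest apart for Dnajc7/Stip1, at -1.17, and closest for Hspa9/Hspa8, at 0.005. No pair passed after adjustment.

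RefSeq promoters (250 bases before to 50 after the start) matched 64 of the 79 members. The heat shock element above, with 2 units, was present in 18 of the 64, which is 28.1%, against 17.0% of 27025 genes with a promoter. A longer form in which GAANNTTC and TTCNNGAA overlap by 3 bases was present in 5 members (Hspd1, Hspe1, Hsph1, Dnajb6 and Chordc1), or 7.81%, against 0.662% of all genes. The ER element was in 3 members (Hspa5, Hsp90b1 and Dnajc3), or 4.69%, against 0.137% of all genes. Among the 6 genes higher in CR mice, 4 had a promoter in the table, and all 4 held the short heat shock element, in Hspb8 and Bag3 after the start and not before it. Among the 54 that did not pass, 46 had a promoter and 13 of those held it. A match describes the letters of the window and does not say that a factor binds there.

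The 17 members below the filter included 3 small heat shock proteins of muscle, Hspb2, Hspb6 and Hspb7, 6 class C J proteins, and Hspb11. Hspb7 had 18.4, 4.85, 4.12, 4.13 and 0.86 normalized counts in CR mice 1 to 5, against 0.9, 0, 0 and 0 in ad libitum-fed mice 2 to 5. CR mouse 1 stood out and the ad libitum-fed mice were under the limit that a count of 0 allows. Hspb7 passed as higher in CR mice when no filter was applied and by DESeq2. Hspb6 was also highest in CR mouse 1 (23.2, 4.85, 6.47, 2.58 and 1.72 normalized counts in CR mice, against 1.80, 1.95, 15.5 and 0 in ad libitum-fed mice), with mouse 4 the highest of the ad libitum-fed mice. Both are genes of contractile cells, and the summed level of pericyte and smooth muscle markers was 800.2, 727, 359, 219 and 231 normalized counts in CR mice 1 to 5, against 271, 220.2, 317 and 229 in ad libitum-fed mice 2 to 5, so that it was high in CR mice 1 and 2. Its part in the Hspb7 values was not tested. The other members below the filter had group means from 0 to 10.5 normalized counts.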

How the data were processed

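Libraries were made from 30 ng of input RNA per mouse with MARS-Seq adapted to bulk samples. The authors trimmed reads with cutadapt, mapped them to mm10 with STAR, counted molecules with HTSeq over 1000 bases at the 3′ ends of RefSeq genes, adjusted the counts where identifiers were saturated and scaled them with DESeq2 size factors, by tool versions not given in the sources used here. This normalized count is the deposited signal, with 1 column per mouse. In each library 99.99 to 100.0% of its values were a whole number of steps of equal size (tolerance 0.0056 normalized counts), and division by the step gave the recovered counts. No library was a duplicate (chi-square per degree of freedom at least 5.68 within CR mice and 3.74 within ad libitum-fed mice).

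Limma 3.58.1 (trend) in R 4.3.3 was fitted on log2(normalized count + 1) to the 6815 genes that had 10 or more normalized counts in 4 or more libraries, without covariates, and p-values were adjusted by Benjamini-Hochberg. On this scale the change of low genes is understated. On the recovered counts, edgeR 4.0.16 called 457 genes higher and 661 lower, and DESeq2 1.42.0 and limma-voom were run as further alternatives. The other alternatives were other scalings, filters, pseudocounts and call rules, single omissions and a replicate block. The fits were tested on simulated data.

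The members and all lists were chosen with earlier results of these data known, and classes and compartments were assigned from textbook knowledge. Values per library are given for every member that passed and for a set of main chaperones, exchange factors and Hsf1 whatever their p, other members are summarised by class, and from further lists the genes with the 2 smallest p-values are named. Members named outside this rule were chosen after their values were seen. RefSeq positions and promoters (GRCm38.p6) matched 79 and 64 members by symbol.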

Additional observations from a re-analysis of the deposited data

Results flagged for a closer look

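Among 64 groups of libraries checked for a sample far from the others, 2 had one, and chance alone marks about 1 in 20 such groups. Hspe1, the gene of the mitochondrial Hsp10, was at 289 normalized counts in CR mouse 1, against 572 to 684.5 in the other 4 CR mice. The log2 ratio of Hspb8 to Bag3 was -0.71 in CR mouse 2, against -0.01 to 0.27 in the other 4 CR mice.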

How the results depend on the processing

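Against 6 higher and 2 lower members, scaling to the fibroblast markers gave 1 higher member and a median log2 fold change of -0.23 in place of 0.24, and the calls over all genes went to 68 higher and 1048 lower, against 544 and 623. Upper-quartile scaling gave 743 higher and 559 lower genes. Leaving out 1 library at a time gave 5 to 11 higher members (11 without CR mouse 1, where 414 of all genes were higher, and 10 without ad libitum-fed mouse 5, where 607 were) and 1 to 2 lower ones. Without CR mouse 1 the members gained were Hspa1a, Hspa1b, Hspe1, Hsph1 and Hsp90ab1. Without CR mouse 2, the highest for several of these genes, the same 8 members were called as in the main fit. The sample labels do not say that a shared replicate number pairs 2 mice. Correlations of same-numbered deviations were -0.07, -0.02, 0.03 and 0.04, with only number 5 correlating best with its own. So few libraries cannot exclude a pairing. A replicate block over mice 2 to 5, which also drops CR mouse 1, gave 10 higher and 1 lower member, and Hspa1a, Hspa1b, Hspe1 and Hsph1 were gained and Dnajc2 lost in it. Signs turned for Hsp90b1 with total-count scaling (-0.011), and its range over single omissions was -0.074 to 0.161, below 0 without CR mouse 3 or ad libitum-fed mouse 4. With the fibroblast scaling they turned for Hspa1b (-0.043), Hspa5 (-0.16), Hsp90ab1 (-0.057), Hsp90b1 (-0.40), Stip1 (-0.20), St13 (-0.26), Ahsa1 (-0.28) and Tcp1 (-0.017). The ratio Hspa9/Hspa8 (0.005) turned with a pseudocount of 5 (-0.019) and under the block (-0.073), and its range over single omissions was -0.116 to 0.167, below 0 without CR mouse 1, 3 or 5 or ad libitum-fed mouse 4. The 8 calls were all made by edgeR, DESeq2 (which added Hsp90ab1 and Hspb7) and limma-voom as well. The causes were not tested. Depth limits members with few recovered counts, such as Dnajc2 and Chordc1.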

Other observations

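Immediate early genes outside the chaperones differed more than most members. Egr1, a zinc finger factor induced by growth signals, ran from 2042 to 3946 normalized counts in CR mice, against 933 to 1157 in ad libitum-fed mice (log2 fold change 1.39 ± 0.18 SE, limma adjusted p = 2.1e-05). Fosl1, a subunit of the AP-1 factor, ran from 157 to 353 in CR mice, against 37.4 to 78.1 in ad libitum-fed mice (1.83 ± 0.26 SE, adjusted p = 6.8e-05). Neither gene's ranges overlapped between the diets, and both calls held with the fibroblast scaling, at 0.91 (adjusted p = 0.0112) for Egr1 and 1.35 (adjusted p = 0.00101) for Fosl1.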
